A study of Mus musculus with 12 samples.

Results

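Aminoacyl-tRNA synthetases join each amino acid to its transfer RNA and so supply both translation systems of the cell. One set of enzymes works in the cytosol. A second set, nuclear-encoded and with gene names that end in 2, works in the mitochondrial matrix on the few proteins made from mitochondrial DNA. Gars and Kars each encode the enzyme of both compartments. Several cytosolic enzyme genes are textbook targets of ATF4, the transcription factor of the integrated stress response, and of amino acid shortage. The set described here held 36 genes, 20 of the cytosol and 16 of the mitochondrion (Gars and Kars counted once, as cytosolic), listed by gene name. Of these, 34 (18 cytosolic and 16 mitochondrial) were measured by a probe set with exactly 1 gene symbol, among 22180 such genes on the array. Aars and Dars had no such probe set and were not analysed here. Methionyl-tRNA synthetase is called Mars below and appears under the newer name Mars1 in the annotation, and Nars2 had 2 probe sets, of which the brighter was used.

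Brown adipose tissue of mice on the C57BL/6J background was measured on 12 whole-transcript arrays, each labelled as the tissue of a mouse, with 3 arrays in each of 4 groups. Mice lacking Sel1L in adipocytes carried floxed Sel1L alleles and the Adiponectin-Cre transgene Tg(Adipoq-cre)1Evdr, and their littermate controls carried the floxed alleles without Cre. Every group shared the floxed alleles and a fast of 5 h, which was spent either at room temperature or in the cold (4 °C). Sel1L is the partner of the Hrd1 ubiquitin ligase in the disposal of misfolded proteins from the endoplasmic reticulum. Cre under the Adiponectin promoter acts in adipocytes, white ones included, and leaves Sel1L in the other cells of the tissue. Titles and source names call the controls wildtype, whereas their genotype entry adds Sel1L f/f. The labels give neither age nor sex.

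The values are log2 expression values, in which a difference of 1 is a 2-fold difference in signal. A difference was called when its adjusted p in limma, over all 23521 probe sets with 1 symbol, was below 0.05, and errors after ± are the SE of the model. Array values are in the order of the replicate numbers, which the main fit did not treat as pairs. Room temperature comes before 4 °C, or control before knockout. All 8 brown adipocyte markers, Ucp1 and Cidea among them, averaged 7.98 to 12.64, and T and B cell markers had scores of 1.76 to 2.21, near the array medians of 2.03 to 2.09. Skeletal muscle markers varied most, with scores (the mean of 12 markers) of 6.80, 7.33 and 7.65 among controls and 6.80, 3.16 and 4.17 in the knockout-labelled arrays at room temperature, and of 5.84, 5.36 and 8.28 and 2.77, 7.06 and 6.35 at 4 °C. The Sel1l probe set was lower in the knockout-labelled arrays at room temperature (-1.12 ± 0.14 SE, adjusted p = 0.00114), but at 4 °C it differed by only -0.19 ± 0.14 (adjusted p = 0.605). The label at 4 °C is therefore not checked by that gene, and the arrays are called by their labels throughout. Knockout-labelled arrays are meant below wherever a knockout is named. With cold, Sel1l rose in these arrays, from 6.18, 6.09 and 5.92 to 6.90, 6.73 and 6.54 (0.66 ± 0.14, adjusted p = 0.0124). In the controls it differed by -0.28 ± 0.14 (0.28), and its interaction of 0.94 ± 0.20 was not called (0.0862). The source name of control replicate 3 at room temperature says 4 °C, against its title and temperature entry. The mean of this array over the 8 brown adipocyte markers was 10.10. The other room temperature controls had 10.12 and 9.85, and the cold controls 10.92 to 11.01. Which entry is right was not tested. The array was analysed as room temperature, and results without it or with it among the 4 °C controls are given where they differ.

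Promoter windows of 300 bases, from 250 before to 50 after the annotated start, were found in the RefSeq table (GRCm38.p6) for 25 of the 34 genes, 11 cytosolic and 14 mitochondrial. Cars, Hars, Hars2, Lars, Nars, Pars2, Rars, Vars and Wars had no entry. The C/EBP-ATF response element, the site class bound by ATF4 dimers, was searched as TGATGNAAT on both strands, where N is any base. It occurred in the windows of 2 cytosolic genes, Gars and Iars, and of 0 mitochondrial genes, against 0.965% of all 32851 windows in the table. The shorter form TGATGNAA was added after the matches of the longer one were seen, and it contains every one of them. It occurred in 4 of the 11 cytosolic windows (Gars, Iars, Tars and Yars) and in 0 of the 14 mitochondrial genes. Of all windows 3.97% held the shorter form. A match is a description of letters and not a measured binding site. The cAMP response element TGACGTCA (1.79% of all windows) and the ER stress response element, CCAAT and CCACG separated by 9 bases (0.119%), matched 0 of the 25 genes. The 4 windows with a match are shown because each of these genes was called higher in the cold in at least 1 genotype. Eprs, Farsb, Sars and Cars2 were also called higher in the cold, and their windows, not shown, held no match to either form. Each reads 5′ to 3′ along the gene, with the match to either form in capitals.
Iars (chr13:49681880-49682179, plus strand): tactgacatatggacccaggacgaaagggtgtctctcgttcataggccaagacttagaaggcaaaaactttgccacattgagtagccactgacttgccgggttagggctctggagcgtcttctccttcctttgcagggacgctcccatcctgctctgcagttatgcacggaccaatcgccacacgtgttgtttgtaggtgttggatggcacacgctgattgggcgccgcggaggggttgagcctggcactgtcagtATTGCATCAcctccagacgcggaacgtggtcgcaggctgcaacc
Gars (chr6:55037751-55038050, plus strand): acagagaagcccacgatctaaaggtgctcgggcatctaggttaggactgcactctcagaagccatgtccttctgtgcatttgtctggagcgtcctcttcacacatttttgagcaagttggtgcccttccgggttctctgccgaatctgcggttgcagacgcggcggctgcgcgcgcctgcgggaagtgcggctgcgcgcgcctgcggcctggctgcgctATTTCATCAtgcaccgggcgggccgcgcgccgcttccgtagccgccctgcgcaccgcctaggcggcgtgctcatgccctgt
Yars (chr4:129189653-129189952, plus strand): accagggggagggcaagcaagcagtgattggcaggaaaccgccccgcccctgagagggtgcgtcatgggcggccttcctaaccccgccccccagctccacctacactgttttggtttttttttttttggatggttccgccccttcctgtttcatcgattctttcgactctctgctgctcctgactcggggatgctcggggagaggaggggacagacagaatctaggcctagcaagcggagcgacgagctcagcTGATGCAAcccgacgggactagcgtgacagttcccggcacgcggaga
Tars (chr15:11399609-11399908, minus strand): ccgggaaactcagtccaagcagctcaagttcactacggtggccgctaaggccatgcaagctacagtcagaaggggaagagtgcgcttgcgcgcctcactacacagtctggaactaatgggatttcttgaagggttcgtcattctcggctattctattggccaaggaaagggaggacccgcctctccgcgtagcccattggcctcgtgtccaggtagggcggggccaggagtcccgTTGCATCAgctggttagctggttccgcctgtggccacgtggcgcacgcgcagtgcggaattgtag
In Yars the element lies along the gene's own strand and begins 3 bases past the annotated start, and in the other windows it lies on the opposite strand. The core in Iars and Tars, read along the gene, is TTGCATCA, and that in Gars is TTTCATCA.

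In the cold, the calls among cytosolic synthetases were all higher, whereas those among mitochondrial ones were few and, in the controls, went both ways. The mitochondrial genes were also dimmer, with class means of 5.16 to 5.23 over the groups, beside 6.60 to 7.35 for the cytosolic genes. The part of brightness in this contrast was not tested. The arrays are of whole tissue, in which fewer cells of a type and less RNA per cell cannot be told apart. In the controls 10 of the 18 cytosolic genes rose at 4 °C and 0 fell (12 and 0 at an unadjusted p under 0.05), where 4.85% of all probe sets rose and 6.23% fell. The median cytosolic difference was 0.50 (log2), beside -0.01 over all probe sets. Of the 16 mitochondrial genes 1 rose and 2 fell, with a median of -0.21. In the knockout-labelled arrays 9 cytosolic genes rose and 0 fell (11 and 1 unadjusted), beside 4.32% of all probe sets higher and 4.7% lower, with a median of 0.46. With each array centred on its median the split of all probe sets was 1183 higher and 851 lower, beside 1017 and 1106 as deposited. Of the mitochondrial genes 1 rose and 0 fell there (1 and 4 unadjusted), with a median of -0.08. Markers of several cell types were called in the same comparisons. Of 8 brown adipocyte markers, 3 rose in the cold in controls and 2 in the knockout-labelled arrays, and none fell. Their mean per array was 9.85 to 10.12 in room temperature controls and 10.92 to 11.01 in cold ones, and 10.02 to 10.34 and 10.68 to 10.73 in the knockout-labelled arrays. Of 8 macrophage markers 2 rose in either genotype, with means of 4.77 to 5.42 and 4.87 to 5.77 in controls and 5.04 to 5.19 and 5.29 to 5.55 in the knockout-labelled arrays. Of 6 endothelial markers 2 fell in either genotype and 1 rose in the controls, with means of 7.43 to 7.97 and 7.34 to 7.60, and of 7.35 to 7.44 and 7.13 to 7.37. None of the 12 muscle, 6 fibroblast, 6 T and B cell or 4 neutrophil markers was called for cold. The part of these cell types in the synthetase calls was not tested, apart from the muscle score given below. Among the 9988 probe sets at least as bright as the dimmest member, 10.3% rose in the cold in controls and 8.94% in the knockout-labelled arrays. Of the same probe sets 12.6% and 9.43% fell.

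**Figure D1:**
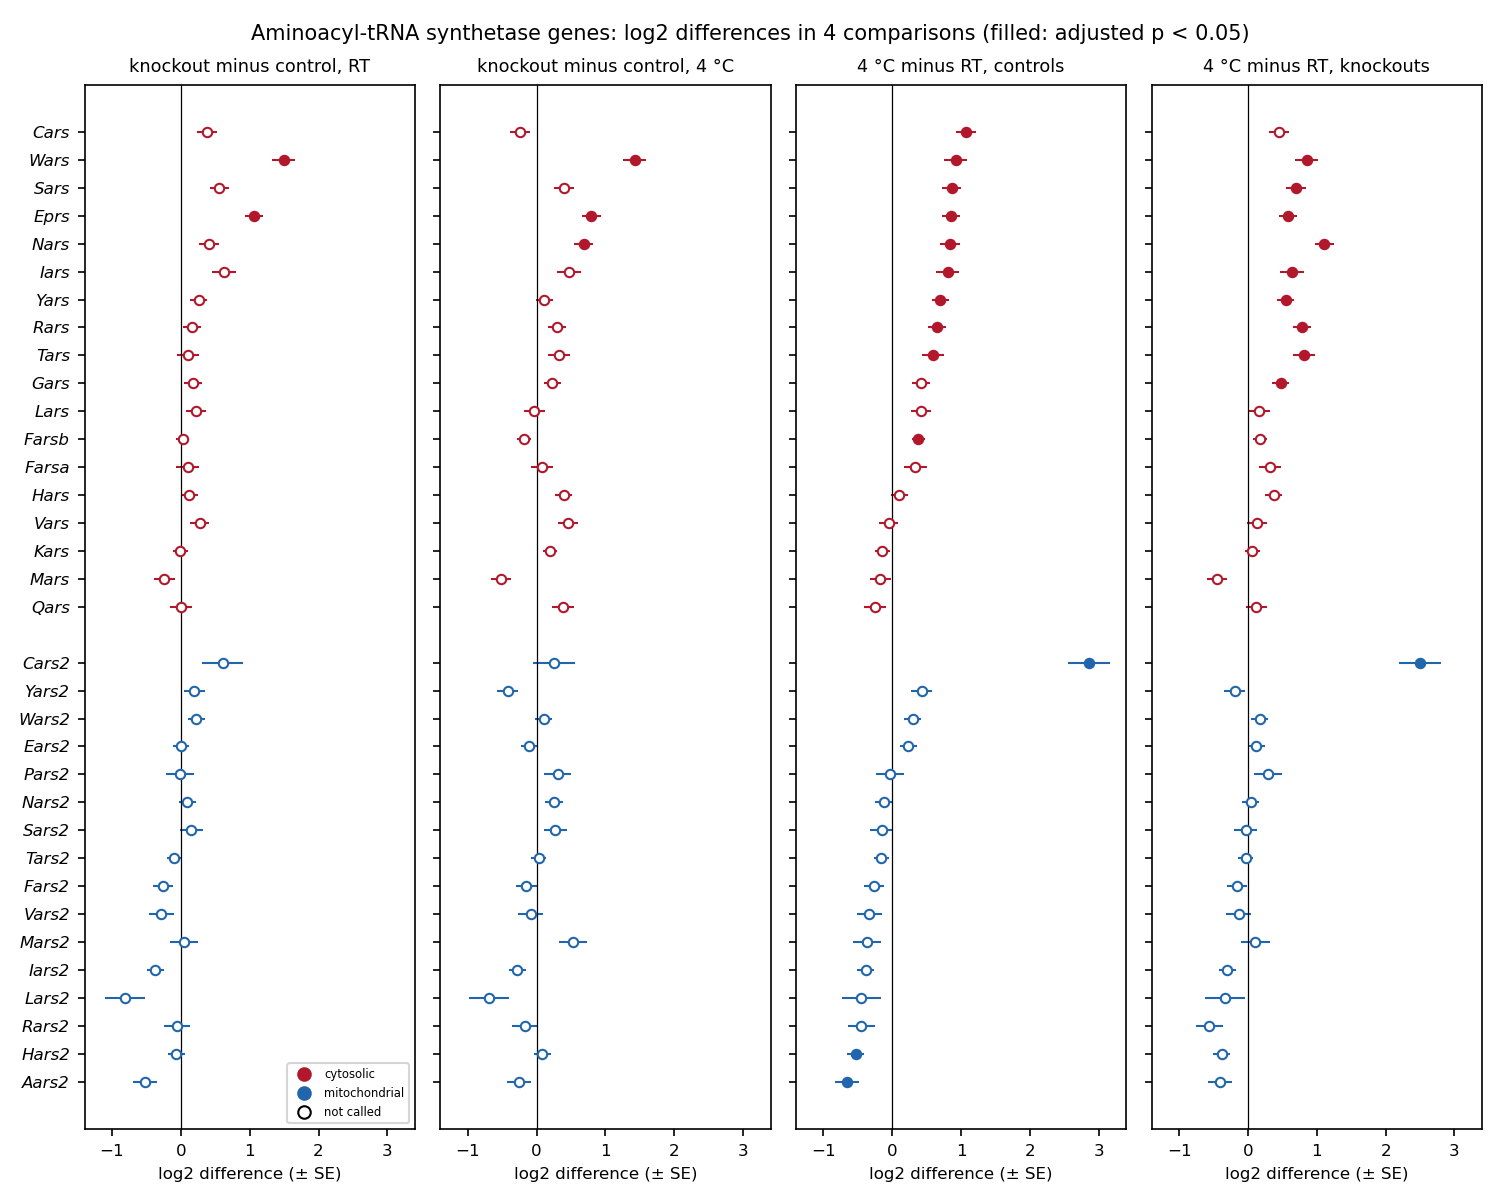
Log2 differences (points) with the SE of the model (bars) for the 34 measured genes in the 4 comparisons of 2 groups, cytosolic genes in red above and mitochondrial genes in blue below, ordered by the cold difference in controls. Filled points have an adjusted p below 0.05. In both cold comparisons the filled red points lie right of 0, and Cars2 at 2.85 and 2.50 is the rightmost point.

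In both genotypes 8 cytosolic genes rose in the cold, namely Eprs, Iars, Nars, Rars, Sars, Tars, Wars and Yars. Sars, the seryl-tRNA synthetase, read 7.79, 7.62 and 7.94 in the room temperature controls and 8.72, 8.80 and 8.42 at 4 °C. It read 8.12, 8.34 and 8.57 at room temperature and 9.11, 9.08 and 8.94 at 4 °C in the knockout-labelled arrays. Cold and room temperature arrays were apart within each genotype, and the cold controls overlapped the knockout-labelled arrays of room temperature. The cold differences were 0.86 ± 0.14, adjusted p = 0.00228, and 0.70 ± 0.14, adjusted p = 0.00827. Nars, for asparagine, read 7.47, 8.01 and 7.81 at room temperature and 8.69, 8.62 and 8.48 at 4 °C in the controls, a difference of 0.84 ± 0.14, adjusted p = 0.00268. In the knockout-labelled arrays it went from 8.02, 8.35 and 8.14 to 9.31, 9.36 and 9.17, 2.16-fold higher (1.11 ± 0.14, adjusted p = 0.000567), the largest cold difference of a cytosolic member in that genotype. No cold array of Nars overlapped a room temperature array of either genotype.

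Rars, the arginyl enzyme of the multisynthetase complex, read 6.59, 6.70 and 6.77 in the room temperature controls and 7.58, 7.24 and 7.19 at 4 °C (0.65 ± 0.13, adjusted p = 0.00661). The knockout-labelled arrays read 7.05, 6.78 and 6.71 and 7.65, 7.72 and 7.53 (0.79 ± 0.13, adjusted p = 0.00254). In Rars, too, every cold array lay above every room temperature array. Tars, for threonine, read 6.42, 6.80 and 6.78 and 7.29, 7.47 and 7.00 among controls (0.59 ± 0.16, adjusted p = 0.0299) and 6.59, 7.04 and 6.66 and 7.63, 7.64 and 7.47 in the knockout-labelled arrays (0.82 ± 0.16, adjusted p = 0.00614). Its lowest cold control lay just below the highest room temperature array labelled knockout. The call of Tars in the controls was lost without control replicate 1 at room temperature (adjusted p = 0.123) and without control replicates 1 (0.0886) or 2 (0.126) at 4 °C. It was also lost in a fit of the 6 compared arrays alone (0.0708) and when all probe sets, named or not, were adjusted for (0.0634).

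Iars and Yars are among the genes whose windows are printed above. Iars, the isoleucyl enzyme, read 6.70, 7.07 and 7.40 and 7.90, 7.97 and 7.70 among controls (0.80 ± 0.17, adjusted p = 0.0097). In the knockout-labelled arrays it read 7.43, 7.93 and 7.69 and 8.27, 8.40 and 8.30 (0.64 ± 0.17, adjusted p = 0.0359). Each genotype's cold arrays lay above its room temperature arrays. The second of these calls was lost when any of 5 of the 6 arrays compared was left out, namely knockout replicates 1 (adjusted p = 0.125) and 3 (0.0868) at room temperature and replicates 1, 2 and 3 at 4 °C (0.0821, 0.119 and 0.0805), when all probe sets, named or not, were adjusted for (0.0759) and after a second quantile normalization (0.0548). Yars, the tyrosyl enzyme, read 5.37, 5.51 and 5.83 and 6.31, 6.27 and 6.21 among controls (0.69 ± 0.12, adjusted p = 0.00348) and 5.78, 5.93 and 5.77 and 6.50, 6.32 and 6.31 in the knockout-labelled arrays (0.55 ± 0.12, adjusted p = 0.0148). All 6 cold arrays exceeded all 6 room temperature arrays. Its call in the knockout-labelled arrays was lost without replicate 3 at room temperature (0.0524) or replicate 1 at 4 °C (0.068).

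The other cold calls of cytosolic genes were made in 1 genotype. Cars, for cysteine, read 4.53, 4.88 and 5.24 in the room temperature controls and 5.97, 5.90 and 5.98 at 4 °C, 2.1-fold higher (1.07 ± 0.15, adjusted p = 0.000934), the largest cytosolic difference in controls, with no overlap. Knockout-labelled arrays read 5.27, 5.17 and 5.34 and 5.84, 5.62 and 5.67 (0.45 ± 0.15, adjusted p = 0.0907). That second difference was called without control replicate 1 (adjusted p = 0.0371) or 3 (0.0358) at room temperature, through the shared spread, and in a fit of the 6 compared arrays alone (0.0436). The interaction of Cars, -0.62 ± 0.21, was the largest of a member in either direction and did not pass (adjusted p = 0.328, 95% interval -1.08 to -0.16), so the cold responses were not shown to differ.

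Farsb, the beta subunit of the phenylalanyl enzyme, read 6.03, 6.24 and 6.18 and 6.59, 6.52 and 6.48 among controls (0.38 ± 0.10, adjusted p = 0.0273) and 6.12, 6.28 and 6.13 and 6.39, 6.38 and 6.27 in the knockout-labelled arrays (0.17 ± 0.10, adjusted p = 0.384). Its call was lost without control replicates 1 (0.109) or 3 (0.0547) at room temperature, without control replicates 1 (0.0955) or 2 (0.0713) at 4 °C, and in a fit of the 6 compared arrays alone (0.0844). Farsb overlaps the locus of Sgpp2 in the annotation, and Farsa, its partner subunit, differed by 0.33 ± 0.16, adjusted p = 0.244 in the controls. Gars, the glycyl enzyme of both compartments, read 8.92, 8.86 and 9.06 and 9.41, 9.40 and 9.28 among controls (0.42 ± 0.13, adjusted p = 0.0595) and 9.33, 9.23 and 8.81 and 9.64, 9.53 and 9.61 in the knockout-labelled arrays (0.47 ± 0.13, adjusted p = 0.0401). Its cold and room temperature arrays were apart within each genotype, and the cold controls overlapped the knockout-labelled arrays of room temperature. The Gars call was lost without any of 8 arrays (the highest adjusted p was 0.126, on leaving out knockout replicate 3 of room temperature) and under 6 of the 10 other settings, a model with the skeletal muscle score (0.0572) among them. In the controls Gars was called under 5 alternatives (adjusted p from 0.0198 to 0.0489). Farsb and Gars thus lie near the threshold.

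Cytosolic members with no call in the cold were Farsa, Hars, Kars, Lars, Mars, Qars and Vars. Their differences ran from -0.25 (Qars) to 0.42 (Lars) in the controls and from -0.45 (Mars) to 0.37 (Hars) in the knockout-labelled arrays. Lars was called in the controls without control replicate 3 at 4 °C (0.0446). Of the 7 measured enzymes of the multisynthetase complex (Eprs, Iars, Kars, Lars, Mars, Qars and Rars), 3 rose in the controls and 3 in the knockout-labelled arrays, with medians of 0.42 and 0.17. The 11 cytosolic genes outside the complex had 7 and 6 calls, all higher, with medians of 0.59 and 0.47. By enzyme family, 6 of 10 class I and 4 of 8 class II cytosolic genes rose in the controls, and 5 and 4 in the knockout-labelled arrays. The 2 families are unrelated in fold, and cold calls came from both.

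When control replicate 3 of room temperature was counted as a 4 °C array, 0 of the 18 cytosolic and 0 of the 16 mitochondrial genes were called for cold in the controls by limma (12 cytosolic higher and 0 lower and 1 mitochondrial higher and 3 lower at an unadjusted p under 0.05). Over all probe sets, too, 0 were called higher and 0 lower for cold in the controls in that setting. The loss there was thus not particular to the members. Calls for cold in the knockout-labelled arrays, which that array enters only through the spread, were then 5 cytosolic (Eprs, Gars, Iars and Sars were lost) and 0 mitochondrial (Cars2 was lost, adjusted p = 0.052). Over all probe sets 568 rose and 476 fell there, in place of 1017 and 1106. Without the array altogether, 9 cytosolic genes were called in the controls. The count in the knockout-labelled arrays was 5 without knockout replicate 3 at room temperature and 5 without knockout replicate 1 at 4 °C.

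Mitochondrial members were led by an exception. Cars2, the mitochondrial cysteinyl-tRNA synthetase, also known to make cysteine persulfides, read 5.55, 5.66 and 5.69 in the room temperature controls and 8.63, 9.18 and 7.65 at 4 °C. It was 7.22-fold higher in the cold (2.85 ± 0.30, adjusted p = 0.000198, 95% interval 2.19 to 3.51), the largest difference of any member in any comparison. The knockout-labelled arrays read 6.68, 5.79 and 6.24 and 8.76, 8.78 and 8.68, 5.67-fold higher at 4 °C (2.50 ± 0.30, adjusted p = 0.000433). Every cold array of Cars2 exceeded every room temperature array. Among the cold controls replicate 3 was the lowest, and that array also had the highest skeletal muscle score, a relation that was not tested. Both calls of Cars2 held in a model with that score. Its interaction was -0.35 ± 0.43 (adjusted p = 0.863), and its genotype differences were 0.60 ± 0.30 (0.435) at room temperature and 0.25 ± 0.30 (0.778) at 4 °C.

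Aars2 and Hars2 fell in the cold controls. Hars2, the histidyl enzyme, read 5.19, 5.08 and 5.19 at room temperature and 4.85, 4.49 and 4.55 at 4 °C (-0.53 ± 0.12, adjusted p = 0.0153), and 5.30, 4.99 and 4.98 and 4.70, 4.66 and 4.76 in the knockout-labelled arrays (-0.38 ± 0.12, adjusted p = 0.0786). Its control call was lost without control replicate 1 at room temperature (0.0551) or replicate 2 at 4 °C (0.0696). In each genotype the cold arrays of Hars2 were all lower than the room temperature arrays. Hars and Hars2 are neighbours whose loci overlap in the annotation, and the cytosolic gene differed by 0.10 ± 0.12 in the same comparison. Aars2, for alanine, read 4.88, 5.00 and 4.58 and 4.40, 4.00 and 4.08 among controls (-0.66 ± 0.17, adjusted p = 0.0291) and 4.38, 4.44 and 4.08 and 3.58, 3.95 and 4.17 in the knockout-labelled arrays (-0.40 ± 0.17, adjusted p = 0.21). The Aars2 call was lost without control replicates 1 (0.0926) or 2 (0.108) at room temperature or replicates 2 (0.114) or 3 (0.0689) at 4 °C, when all probe sets, named or not, were adjusted for (0.0643) and after a second quantile normalization (0.0685). The mitochondrial count in the controls was 1 without control replicate 1 at room temperature and 1 without control replicate 2 at 4 °C.

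The other 13 mitochondrial genes were not called for cold in either genotype. In the controls they ran from -0.45 (Rars2) to 0.42 (Yars2), and 10 of the 13 were below 0. The alternatives added calls for Iars2, lower without control replicate 3 at room temperature (adjusted p = 0.0427), with dim probe sets left out (0.0487) or after a second quantile normalization (0.0273), and for Yars2, higher without control replicate 3 at 4 °C (0.023).

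Genotype gave few calls among the members, all of them cytosolic and higher. At room temperature 2 of 18 cytosolic genes, Wars and Eprs, rose in the knockout-labelled arrays and 0 fell (6 and 0 unadjusted), where 1.29% of all probe sets rose and 0.429% fell. Of the marker genes named above, 0 were called for genotype at room temperature and 1, a brown adipocyte marker that was lower, at 4 °C. Of 16 mitochondrial genes 0 were called (3 at an unadjusted p under 0.05, all lower). At 4 °C 3 cytosolic genes rose, Wars, Eprs and Nars, and 0 fell (9 and 1 unadjusted), beside 3.61% of all probe sets higher and 2.19% lower, and again 0 mitochondrial genes were called (4 unadjusted, 1 higher and 3 lower). The cytosolic medians were 0.20 and 0.31 and the mitochondrial medians -0.04 and -0.02, beside -0.01 over all probe sets in both comparisons. Among the 9988 probe sets at least as bright as the dimmest member, 2.82% rose and 0.861% fell for genotype at room temperature. At 4 °C 7.69% of them rose and 4.83% fell.

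Wars, the tryptophanyl-tRNA synthetase, which is also induced by interferon gamma, read 6.67, 6.76 and 7.16 among controls and 8.56, 8.47 and 8.04 in the knockout-labelled arrays at room temperature. It was 2.81-fold higher in the latter (1.49 ± 0.17, adjusted p = 0.00031). At 4 °C it read 7.91, 7.87 and 7.56 and 9.29, 9.12 and 9.22, 2.69-fold higher (1.43 ± 0.17, adjusted p = 0.000151). No 2 of the 4 groups overlapped: the order was room temperature controls, cold controls, room temperature knockout-labelled arrays and cold knockout-labelled arrays. Wars overlaps the locus of Wdr25 in the annotation, and probe positions were not used here. The cold differences of Wars were 0.92 ± 0.17, adjusted p = 0.00356, in the controls and 0.85 ± 0.17, adjusted p = 0.00636, in the knockout-labelled arrays. Its interaction of -0.06 ± 0.23 had a 95% interval of -0.57 to 0.44 (adjusted p = 0.965).

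Eprs, the bifunctional enzyme for glutamate and proline, read 7.55, 7.73 and 7.69 among controls and 8.57, 8.98 and 8.61 in the knockout-labelled arrays at room temperature, 2.09-fold higher (1.07 ± 0.13, adjusted p = 0.000978). At 4 °C it read 8.62, 8.56 and 8.36 and 9.44, 9.34 and 9.15, 1.74-fold higher (0.80 ± 0.13, adjusted p = 0.00295). The cold controls of Eprs overlapped the room temperature knockout-labelled arrays, and the other groups were apart. For cold Eprs differed by 0.85 ± 0.13, adjusted p = 0.00164, in the controls and 0.59 ± 0.13, adjusted p = 0.0158, in the knockout-labelled arrays. This last call was lost without replicates 1 (0.0599) or 3 (0.0618) at room temperature or 1 (0.0715) or 2 (0.0596) at 4 °C. With the array of conflicting label among the cold controls the room temperature call of Eprs was lost (adjusted p = 0.0764), whereas that of Wars held.

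Nars was 1.61-fold higher in the knockout-labelled arrays at 4 °C (0.68 ± 0.14, adjusted p = 0.0126), with no overlap of the values given above, and the call was lost without knockout replicate 2 at 4 °C (0.058). At room temperature its groups differed by 0.41 ± 0.14, adjusted p = 0.212, and its interaction of 0.28 ± 0.20 was not called (adjusted p = 0.728). Iars (0.63 ± 0.17, adjusted p = 0.101) and Sars (0.56 ± 0.14, adjusted p = 0.0746) came next at room temperature and did not pass. Iars was called without control replicate 3 (0.0441) and Sars with a trended, robust spread (0.0423). The other 14 cytosolic genes lay between -0.24 (Mars) and 0.41 (Nars) at room temperature. At 4 °C the 15 genes with no call lay between -0.51 (Mars) and 0.47 (Iars).

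**Figure D2:**
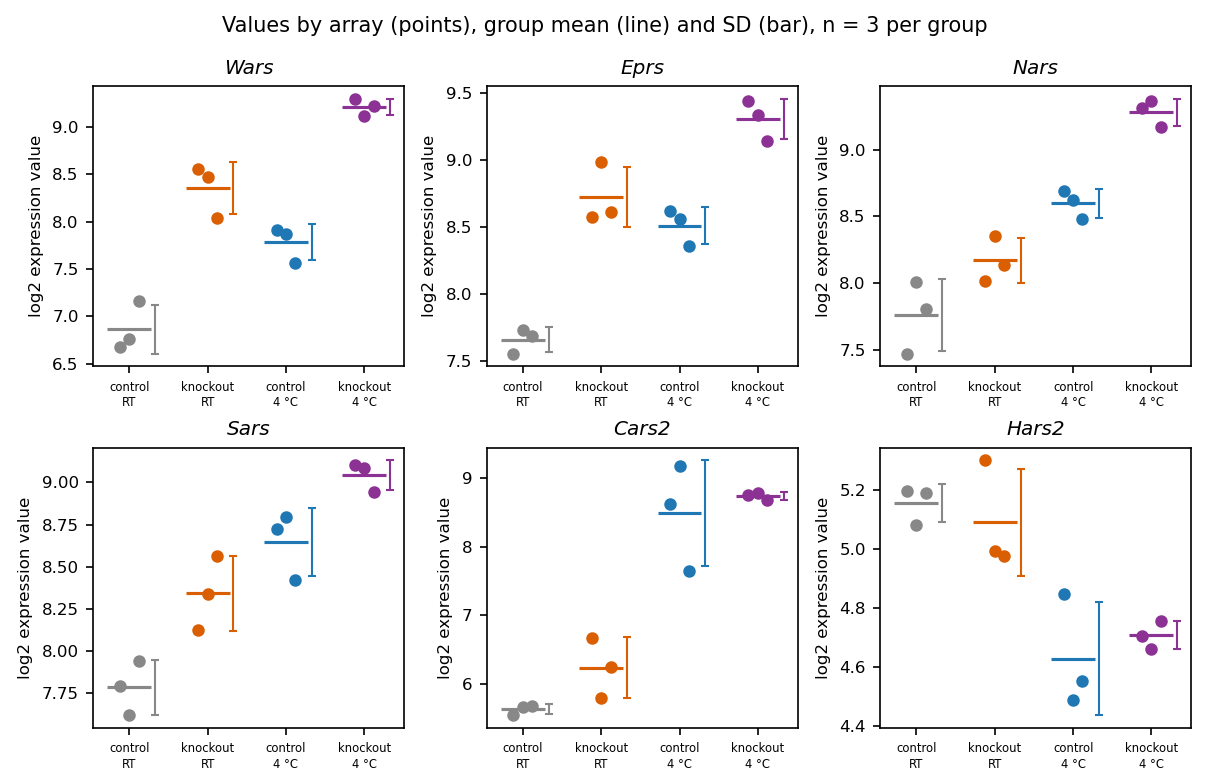
Log2 expression values of 6 genes in each array (points), with the group mean (line) and SD (bar) of 3 arrays, for controls and knockout-labelled arrays at room temperature (RT) and 4 °C. The 4 groups of Wars do not overlap, Eprs, Nars and Sars are highest in the cold knockout-labelled arrays, Cars2 separates by temperature, and Hars2 is lower in the cold.

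Mars, the methionyl enzyme, was the cytosolic member with the lowest genotype differences, at -0.24 ± 0.15 (0.561) and -0.51 ± 0.15 (0.0683). It read 6.73, 6.89 and 6.86 and 6.53, 6.54 and 6.68 in controls and knockout-labelled arrays at room temperature and 6.56, 6.54 and 6.86 and 5.98, 5.94 and 6.49 at 4 °C. The 4 °C difference was called without knockout replicate 3 at 4 °C (0.0101), with dim probe sets left out (0.0487) and with the array of conflicting label among the cold controls (0.0489). Its cold difference in the knockout-labelled arrays, -0.45 ± 0.15 (0.0903), was called without knockout replicate 3 at 4 °C (0.0142). In the annotation Mars overlaps the locus of Ddit3, which rose in these arrays, and whether that touches the reading was not tested. Lars2, for mitochondrial leucine, had the largest genotype differences among mitochondrial members. It read 5.55, 4.90 and 5.75 among controls and 4.61, 4.78 and 4.39 in the knockout-labelled arrays at room temperature (-0.81 ± 0.29, adjusted p = 0.224), and 5.05, 4.81 and 5.00 and 4.12, 5.00 and 3.65 at 4 °C (-0.69 ± 0.29, adjusted p = 0.232). Its groups did not overlap at room temperature and overlapped at 4 °C, where it was called without knockout replicate 2 (0.0274). Yars2, the mitochondrial tyrosyl enzyme, was likewise called lower at 4 °C without control replicate 3 (0.0408). It read 6.21, 5.95 and 5.87 and 6.44, 6.74 and 6.13 among controls and 6.19, 6.22 and 6.20 and 5.89, 5.94 and 6.21 in the knockout-labelled arrays.

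No member had a called interaction between genotype and cold (0 of 34, limma), beside 0.306% of all probe sets. At an unadjusted p under 0.05 there were 2, Cars (-0.62) and Yars2 (-0.62 ± 0.22, adjusted p = 0.343). The SE of an interaction was 0.14 to 0.43 over the members with 3 arrays a group, and the interactions of Cars and Yars2, well above their SE, were not called.

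The separation of the classes can be read array by array, as the median over a class of each gene's deviation from its mean in the room temperature controls. The 18 cytosolic genes gave -0.14, 0.04 and 0.10 in the room temperature controls, 0.26, 0.29 and 0.13 in the knockout-labelled arrays at room temperature, 0.54, 0.64 and 0.34 in the cold controls and 0.82, 0.70 and 0.71 in the cold knockout-labelled arrays. The 4 groups did not overlap. The 16 mitochondrial genes gave 0.06, 0.00 and -0.04, -0.09, -0.03 and -0.20, -0.12, -0.28 and -0.20 and -0.16, -0.08 and -0.09 in the same order. Their room temperature controls lay above both cold groups, and all other pairs of groups overlapped. The median cytosolic difference exceeded the mitochondrial one by 0.23 and 0.34 for genotype at room temperature and 4 °C, and by 0.72 and 0.54 for cold in the controls and the knockout-labelled arrays. Members share the arrays and are not replicates, so these medians carry no test. With the muscle score of each array in the model 27 of the 28 calls of members held.

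**Figure D3:**
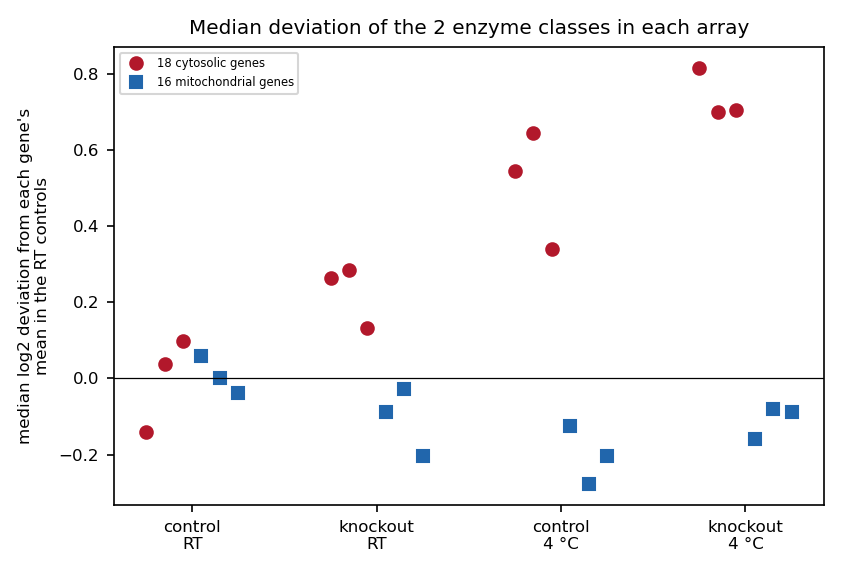
Median log2 deviation of the cytosolic (red circles) and mitochondrial (blue squares) genes from their own means in the room temperature controls, 1 point per array and class. The red points climb from -0.14 to 0.10 in the room temperature controls to 0.70 to 0.82 in the cold knockout-labelled arrays, while the blue points stay between -0.28 and 0.06.

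The cytosolic and mitochondrial enzymes of 1 amino acid were set side by side in 13 pairs, matched by gene name, with Eprs and Ears2 added for glutamate. Phenylalanine (Farsa and Farsb beside Fars2) and proline (Eprs beside Pars2) were measured in both compartments but not paired. There the cytosolic gene was the higher for genotype and for cold, apart from Farsb for genotype at 4 °C (-0.18 beside -0.15 for Fars2). The cytosolic enzyme had the higher cold difference in 12 of 13 pairs in the controls and in 11 of 13 in the knockout-labelled arrays, with median gaps of 0.63 and 0.73. Cysteine was the exception in both, by -1.78 and -2.05, and methionine in the second, by -0.55. For genotype the cytosolic enzyme was the higher in 11 of 13 pairs at either temperature, with median gaps of 0.32 and 0.47, and cysteine and methionine were again the exceptions. Tryptophan had the widest genotype gap, 1.27 and 1.32, and Wars2 itself differed by 0.23 and 0.10. The comparisons share arrays, so these counts do not support one another.

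**Figure D4:**
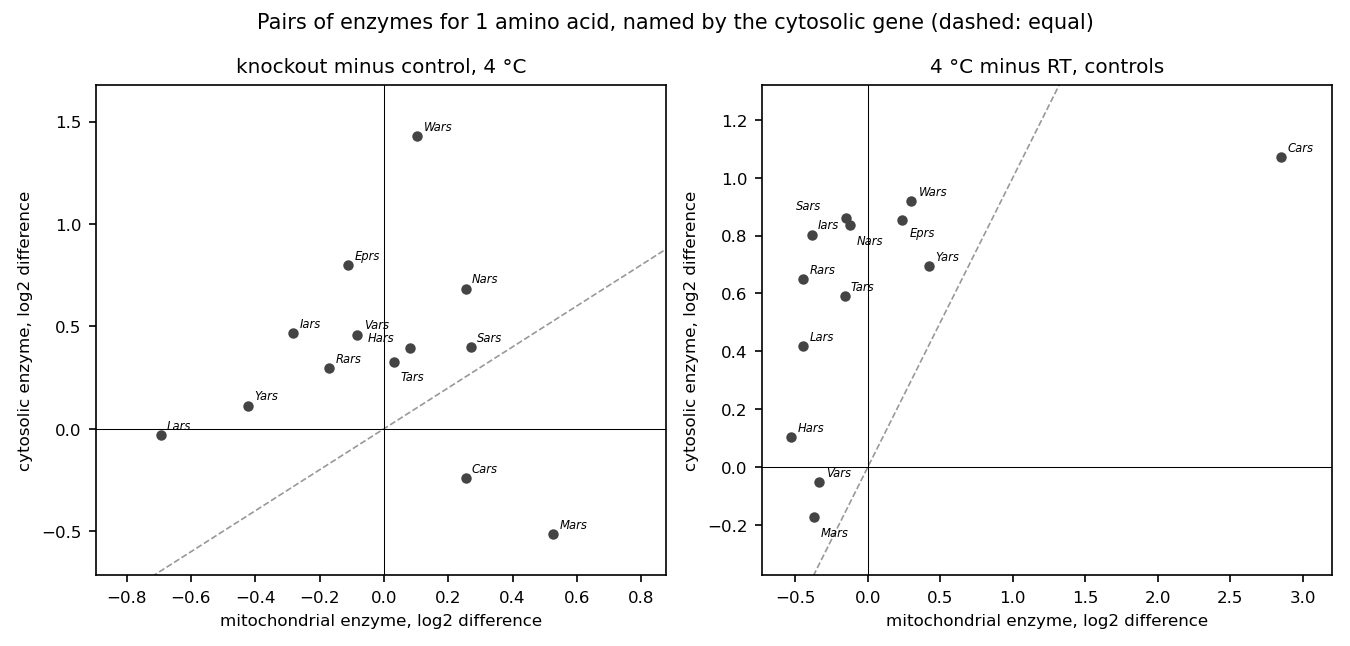
Log2 difference of the cytosolic enzyme (vertical axis) against that of the mitochondrial enzyme for the same amino acid (horizontal axis), for genotype at 4 °C (left) and for cold in the controls (right), on axes of unequal scale. Points above the dashed line have the higher difference in the cytosol: all but Cars and Mars on the left and all but Cars on the right.

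Other genes of transfer RNA charging were called in both directions. Of 17 listed partners and accessory factors 14 were measured, and Aimp2, Aarsd1 and Trnt1 were not analysed here. In the cold 2 rose in either genotype, both scaffolds of the multisynthetase complex: Aimp1 by 0.55 ± 0.13 in the controls (0.0162) and 0.69 ± 0.13 in the knockout-labelled arrays (0.00502), and Eef1e1 by 0.60 ± 0.15 (0.0217) and 0.64 ± 0.15 (0.017). In the cold controls 4 fell, named after their values were seen: Mtfmt, which formylates the mitochondrial initiator (-1.30), Dtd2 (-1.12), Gatc (-0.55) and Dtd1 (-0.34). In the cold knockout-labelled arrays 0 fell (2 unadjusted). For genotype Aimp1 (0.833 and 0.376) and Eef1e1 (0.975 and 0.896) were not called. Gatb, Gatc and Qrsl1 form the amidotransferase that makes mitochondrial glutaminyl-tRNA in place of a synthetase. Gatb fell by 0.58 in the knockout-labelled arrays at room temperature (SE 0.13, adjusted p = 0.0466). At 4 °C Gatc rose (0.73 ± 0.11, adjusted p = 0.00123), Qrsl1 fell (-0.60 ± 0.16, adjusted p = 0.0428) and Dtd1, a proofreading deacylase, rose (0.41 ± 0.10, adjusted p = 0.0237). Of 12 mitochondrial translation factors, 0 rose and 0 fell at room temperature (0 and 5 unadjusted), and 0 rose and 2 fell at 4 °C, the elongation factors Tufm (-0.51 ± 0.11, adjusted p = 0.0155) and Gfm1 (-0.51 ± 0.14, adjusted p = 0.0483). Their medians were -0.25 and -0.20. In the cold 3 of them fell in the controls, named after their values were seen: Mtif2 (-0.70), Mtif3 (-0.57) and Tsfm (-0.45). Mtif2 fell in the knockout-labelled arrays too (-0.58), and 0 rose (1 in the controls and 0 in the knockout-labelled arrays, unadjusted). Of all probe sets, 4.85% rose and 6.23% fell with cold in the controls, and 4.32% and 4.7% in the knockout-labelled arrays. For genotype the shares were 1.29% higher and 0.429% lower at room temperature and 3.61% and 2.19% at 4 °C.

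From the list of ATF4 and integrated stress response genes, Atf4 itself read 6.78, 6.50 and 7.07 and 7.31, 6.99 and 7.74 in controls and knockout-labelled arrays at room temperature, and 8.55, 8.41 and 8.21 and 8.36, 8.18 and 8.24 at 4 °C. It rose with cold in both (1.61 ± 0.19, adjusted p = 0.000301, and 0.92 ± 0.19, 0.00859), and its genotype differences were 0.56 ± 0.19 (0.193) and -0.13 ± 0.19 (0.822). ATF4 protein is controlled mainly at translation and was not measured. Asns, asparagine synthetase and a standard ATF4 target, was called for genotype at 4 °C (0.47 ± 0.12, adjusted p = 0.0406, beside 0.47 ± 0.12, 0.08, at room temperature, a difference between temperatures of 0.00 ± 0.17 that was not called). Its cold differences were 0.39 ± 0.12 (0.0616) and 0.39 ± 0.12 (0.0693). Ddit3, which encodes CHOP, rose with genotype (1.22 ± 0.14 and 1.36 ± 0.14). Its cold differences of 0.28 ± 0.14 (adjusted p = 0.279) and 0.41 ± 0.14 (0.106) were not called. Psat1 of serine synthesis (2.23 ± 0.19 and 2.79 ± 0.19) and Mthfd2 of mitochondrial folate metabolism (3.39 ± 0.28 and 1.41 ± 0.28) also rose with genotype at both temperatures. Of 29 measured genes of this list (Gdf15 was not analysed here), 9 rose and 0 fell for genotype at room temperature (15 and 0 unadjusted), beside the 1.29% and 0.429% of all probe sets, and 11 rose and 1, Atf3 (-1.36), fell at 4 °C (14 and 7 unadjusted), beside 3.61% and 2.19%. For cold 16 rose in the controls and 14 in the knockout-labelled arrays, and 0 fell in either (1 each unadjusted), beside 4.85% and 4.32% of all probe sets higher. The interaction was called for 2 genes of the list, both lower and named after their values were seen (4 higher and 7 lower unadjusted), beside 0.306% of all probe sets. Atf3 rose by 3.73 ± 0.28 with cold in the controls and 1.38 ± 0.28 in the knockout-labelled arrays, an interaction of -2.36 ± 0.40, adjusted p = 0.0314. Atf5 rose by 1.21 ± 0.11 in the controls and differed by 0.05 ± 0.11 (0.87) in the knockout-labelled arrays, an interaction of -1.16 ± 0.16, adjusted p = 0.00893. For genotype Atf5 was called higher at room temperature (1.63 ± 0.11, adjusted p = 5.65e-06) and at 4 °C (0.47 ± 0.11, 0.0241). Its room temperature knockout-labelled arrays, at 8.52, 8.72 and 8.58, already lay above the cold controls, at 8.18, 8.27 and 8.11. The list's medians were 0.43 and 0.45 for genotype and 1.16 and 0.53 for cold. The list was drawn up with earlier results of these arrays known.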

How the data were processed

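Per the labels' protocols, total RNA of snap-frozen brown adipose tissue was extracted with Trizol and RNeasy columns and labelled for whole-transcript arrays. The deposited values are log2 expression values made by the authors with RMA, per the submitters' processing notes, which corrects background, quantile normalizes and summarises probe sets. Neither the RMA version nor a genome build is named in the sources used here. In all the table held 41345 probe sets, of which 23521 had 1 gene symbol in the platform annotation, 1814 several and 16010 none. All 12 columns were matched by sample identifier. Group means were fitted to all 12 arrays at once in limma 3.58.1 (R 4.3.3, lmFit, contrasts.fit and eBayes, 8 residual degrees of freedom and a prior of 4.45), and tested on simulated data. Benjamini-Hochberg adjustment ran over 23521 probe sets, and since no label says how the mice were kept or pooled, p-values cover the spread among these 12 arrays only, and that number limits the precision. Values in every array are given for members called in any comparison and for the member of each class with the largest difference. Genes of 3 further lists were named among those called, with Atf4, Asns, Ddit3, Aimp1 and Eef1e1 always, and Mars was named after its values were seen. The alternatives were 12 fits with 1 array left out and 10 other settings. Members and lists were chosen with earlier results of these data known. Promoter windows came from RefSeq (GRCm38.p6), and the shorter motif was added after the matches of the longer one were seen.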

Additional observations from a re-analysis of the deposited data

How the results depend on the processing

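Of the 28 calls of members, 19 were lost with the array of conflicting label among the cold controls, 4 when all probe sets, named or not, were adjusted for, 3 after a second quantile normalization, 3 in fits of the 6 compared arrays alone, 1 with the muscle score in the model and 1 with the replicate block, and 0 with dim probe sets left out, median centring, a trended and robust spread or the mean over a gene's probe sets. No called difference changed sign in these settings or on leaving out 1 array. With the array of conflicting label among the cold controls the counts were 1 (cytosolic, genotype at room temperature), 0 (cytosolic and mitochondrial, cold in controls), 5 and 0 (cytosolic and mitochondrial, cold in the knockout-labelled arrays), and the cytosolic median exceeded the mitochondrial one for cold in controls by 0.61 in place of 0.72. Over all probe sets, too, 0 were called for cold in controls in that setting. The cause was not tested. With 1 array left out at a time, fits that also hold fewer arrays, the mitochondrial count ran from 0 to 1 for genotype at 4 °C and from 1 to 4 for cold in controls, and the cytosolic count from 5 to 10 for cold in the knockout-labelled arrays. The excess of the cytosolic median ran from 0.62 to 0.83 for cold in controls, from 0.43 to 0.62 for cold in the knockout-labelled arrays and from -0.24 to -0.010 for the interaction. Replicate numbers were not treated as pairs in the main fit. Deviations of same-numbered arrays correlated from -0.18 to 0.16, with 2 of 18 pairs over 0.1. Those of differently numbered arrays correlated from -0.30 to 0.25, with 6 of 36 over 0.1. Of the 12 arrays 5 correlated best with their own number. Whether the numbers stand for a pairing of mice was not tested beyond this and the replicate block. With the replicate block the cytosolic calls were 2 and 4 for genotype and 10 and 9 for cold, with Gars lost in the cold knockout comparison and Mars called lower in it and for genotype at 4 °C. Signal over background was not assessed, since only summarised values were used.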

Other observations

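The neighbours of Cars2 in the gene annotation were read after its cold difference had been seen. Ing1, the next protein-coding gene on one side and the gene of a chromatin reader, read 5.71, 5.60 and 5.42 in the room temperature controls and 7.05, 6.99 and 6.01 at 4 °C (1.10 ± 0.22, adjusted p = 0.00708). In the knockout-labelled arrays it read 5.73, 5.78 and 5.78 and 7.15, 7.36 and 6.98 (1.40 ± 0.22, adjusted p = 0.00201). As with Cars2, every cold array lay above every room temperature array and control replicate 3 was the lowest of the cold arrays. Naxd, the next gene on the other side, which repairs hydrated NADH, was not called (log2 differences, with adjusted p, of -0.37 (0.31) and -0.08 (0.901)). Beyond it Rab20, a small GTPase, rose in both genotypes (1.30 ± 0.19, adjusted p = 0.00125, and 1.43 ± 0.19, adjusted p = 0.000781), from values of 2.46, 2.44 and 3.12 in the room temperature controls. Col4a2, a basement membrane collagen, rose in the controls (1.15 ± 0.22, adjusted p = 0.00478) and was not called in the knockout-labelled arrays (0.62 (0.11)). On the far side of Ing1, Ankrd10 was not called (-0.36 (0.37) and -0.71 (0.0616)). Positions of probes within these genes were not used here.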
